A study of Mus musculus with 12 samples.

Results

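The proteasome gene set described here holds the 50 protein-coding genes, of 32121 genes counted, whose mouse symbol begins with Psma, Psmb, Psmc, Psmd, Psme, Psmf or Psmg followed by a number. Symbols came from the GENCODE mouse annotation, release 21, matched by Ensembl identifier, and no measured value entered the choice. The rule also names the 3 pairs set against each other below: the immunoproteasome subunits Psmb8, Psmb9 and Psmb10 and the constitutive subunits Psmb5, Psmb6 and Psmb7 that they replace. Of the 50 genes, 49 had enough reads to be tested, and the thymus subunit gene Psmb11 had not.

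Messenger RNA was sequenced from 12 pieces of mouse spleen, 2 pieces (here called sections) from each of 6 animals. The 3 SB animals carried the genotype VEC-Cre;SB Transposase; onc2 and the 3 WT animals were wild-type controls, and all were labelled C57BL/6, with no age given. VEC-Cre is expressed from the vascular endothelial cadherin promoter and turns on the Sleeping Beauty (SB) transposase, which moves copies of the mutagenic onc2 transposon, in endothelial cells and the cells that descend from them. Insertions differ between animals and between clones of cells within an animal, so the SB group is not 1 uniform mutant.

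The proteasome is the barrel-shaped protease that degrades proteins tagged with ubiquitin. Its core is built of outer alpha rings and inner beta rings, with the protein-cutting sites on the beta subunits encoded by Psmb5, Psmb6 and Psmb7, and a regulatory particle of ATPase and non-ATPase subunits unfolds substrates and feeds them in. Lymphocytes, dendritic cells and cells exposed to interferon-gamma assemble the immunoproteasome instead, whose exchanged catalytic subunits favour peptides that fit MHC class I molecules.

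The 12 libraries held 14320833 to 22031026 counts. In the marker counts that follow, higher and lower mean an adjusted p under 0.05 in edgeR's quasi-likelihood test. By that test 7.99% of all genes were higher and 9.1% lower in SB spleens. Cell type markers differed by genotype: all 9 B cell marker genes reported (among them Cd79a and Pax5) were lower in SB spleens, summing to 56.4 to 163 CPM (counts scaled to a common library size) in the SB libraries and 6941 to 9459 CPM in the WT libraries, and none was at 0. Of 10 T cell markers, 7 were lower in SB spleens, with sums of 28.0 to 151 CPM in SB and 1110 to 1431 CPM in WT libraries. For all 10, beside 16.5% of all genes, every SB library lay below every WT library. Proliferation genes went the other way, with 9 of 10 higher in SB spleens. Their sums were 2131 to 4272 CPM in SB and 466 to 1073 CPM in WT libraries. For all 10, beside 13.1% of all genes, every SB library lay above every WT library. Of 10 neutrophil and granule markers 4 were higher in SB spleens: Ctsg, Mpo, Ms4a3 and Prtn3. In SB animal 1 those 4 were above every WT animal, with Prtn3 at 417 CPM. S100a8, S100a9, Ngp, Ltf and Camp were lower in SB animal 1 (15.7, 27.7, 14.4, 3.64 and 2.70 CPM) than in any WT animal. The 10 summed to 618 to 2658 CPM in SB and 47.8 to 415 CPM in WT libraries. Of 10 megakaryocyte markers 2 were higher, with sums of 1370 to 5968 CPM in SB and 295 to 957 CPM in WT libraries. Of 10 erythroid markers 4 were higher, but their sums overlapped, at 3069 to 39260 CPM in SB and 14083 to 51677 CPM in WT libraries. Log2 fold changes were positive for 7 erythroid markers. They were negative for Hbb-bs (-1.60), Hba-a1 (-1.09) and Alas2 (-0.35), which did not pass. Of the 10 red pulp macrophage markers 0 passed in edgeR's quasi-likelihood test, but their sums ran from 1070 to 14919 CPM in SB libraries, the highest from SB animal 2, and from 1199 to 2462 CPM in WT libraries. At 1 gene the WT libraries went against their strain label: H2-Ea-ps, a class II gene that C57BL/6 mice are known not to transcribe because of a promoter deletion, averaged 0.170 ± 0.0726 CPM in SB and 91.7 ± 5.39 CPM in WT spleens, so strain background and genotype cannot be told apart. In such bulk tissue, fewer cells of a type and less RNA per cell cannot be told apart, and the part of cell content in the results below was not tested.

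The immunoproteasome made up a smaller share of the catalytic subunit transcripts in SB spleens than in WT spleens, in every section. Each of the 3 immunoproteasome subunits had fewer reads relative to its constitutive partner in all 6 SB libraries than in any of the 6 WT libraries. The difference between the genotypes was 3.70-fold for Psmb8 over Psmb5, 2.86-fold for Psmb9 over Psmb6 and 2.20-fold for Psmb10 over Psmb7, each lower in SB spleens. B and T cell markers were lower in the same libraries, as given above. So were 3 of 10 dendritic cell markers (edgeR's quasi-likelihood test, adjusted p under 0.05), beside 9.1% of all genes. The log2 fold changes of the 10 ran from -4.28 to -0.54. They summed to 75.3 to 476 CPM in SB and 757 to 844 CPM in WT libraries. The gene levels themselves were lower in SB spleens for Psmb8 and Psmb9 and higher for Psmb7, and only Psmb7 passed the test across all genes.

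Psmb8 (chr17:34197721-34201454, build GRCm38) encodes the immunoproteasome subunit that takes the place of Psmb5, the chymotrypsin-like subunit. Its level was 120 and 175 CPM in the first and second section of SB animal 1, 153 and 156 CPM in SB animal 2 and 41.0 and 44.4 CPM in SB animal 3, against 274 and 235 CPM in WT animal 1, 296 and 242 CPM in WT animal 2 and 317 and 274 CPM in WT animal 3. All SB sections lay below all WT sections, and SB animal 3 lay far below the other SB animals. Over animals the mean was 115 ± 62.1 CPM in SB spleens and 271 ± 22.7 CPM in WT spleens (SD, n = 3 each). The log2 fold change was -1.24 (SE 0.48) with an adjusted p of 0.128 in edgeR's quasi-likelihood test, so the difference did not pass at 0.05. Without SB animal 3 it was -0.84 and passed, with an adjusted p of 0.0275 in the same edgeR test. Of the 6 fits that each left out an animal, 1 passed for Psmb8, and of all 14 alternatives 2 did.

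Psmb9 (chr17:34181987-34187764) encodes the subunit that takes the place of Psmb6, the caspase-like subunit. Its level was 111 and 136 CPM in SB animal 1, 148 and 156 CPM in SB animal 2 and 42.4 and 45.0 CPM in SB animal 3, against 218 and 214 CPM in WT animal 1, 233 and 214 CPM in WT animal 2 and 279 and 279 CPM in WT animal 3. The order of animals was that seen for Psmb8, again with no overlap between genotypes. The log2 fold change was -1.15 (SE 0.45, adjusted p = 0.136, edgeR's quasi-likelihood test), and it did not pass.

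Psmb10 (chr8:105935735-105938444), whose product takes the place of the trypsin-like subunit Psmb7, had 125 and 184 CPM in SB animal 1, 141 and 151 CPM in SB animal 2 and 73.9 and 93.0 CPM in SB animal 3, against 168 and 153 CPM in WT animal 1, 184 and 153 CPM in WT animal 2 and 185 and 183 CPM in WT animal 3. Here the genotypes overlapped, because section 2 of SB animal 1 reached the WT range. The log2 fold change was -0.40 (SE 0.26, adjusted p = 0.316, edgeR's quasi-likelihood test).

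Among the constitutive partners, Psmb7 (chr2:38588036-38644087) was the gene that passed. It had 96.7 and 82.3 CPM in SB animal 1, 90.9 and 99.7 CPM in SB animal 2 and 88.6 and 92.0 CPM in SB animal 3, against 60.004 and 56.9 CPM in WT animal 1, 65.7 and 55.6 CPM in WT animal 2 and 60.04 and 48.9 CPM in WT animal 3. All SB sections were above all WT sections, and the 3 SB animals were close to each other. The rise was 1.61-fold (log2 0.69, SE 0.13, adjusted p = 0.0206, edgeR's quasi-likelihood test).

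Psmb6 (chr11:70525367-70527858) had 109 and 154 CPM in SB animal 1, 109 and 120 CPM in SB animal 2 and 93.2 and 101 CPM in SB animal 3, against 104 and 95.4 CPM in WT animal 1, 114 and 99.0 CPM in WT animal 2 and 96.4 and 96.1 CPM in WT animal 3. The genotypes overlapped, and the log2 fold change of 0.20 (SE 0.16, adjusted p = 0.404, edgeR's quasi-likelihood test) did not pass.

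Psmb5 (chr14:54614119-54618022) had 46.6 and 55.2 CPM in SB animal 1, 18.0 and 19.4 CPM in SB animal 2 and 22.3 and 25.2 CPM in SB animal 3, against 21.8 and 21.5 CPM in WT animal 1, 23.3 and 23.1 CPM in WT animal 2 and 19.7 and 17.8 CPM in WT animal 3. SB animal 1 alone stood above the WT range in both sections. The log2 fold change was 0.57 (SE 0.40, adjusted p = 0.353, edgeR's quasi-likelihood test).

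**Figure D1:**
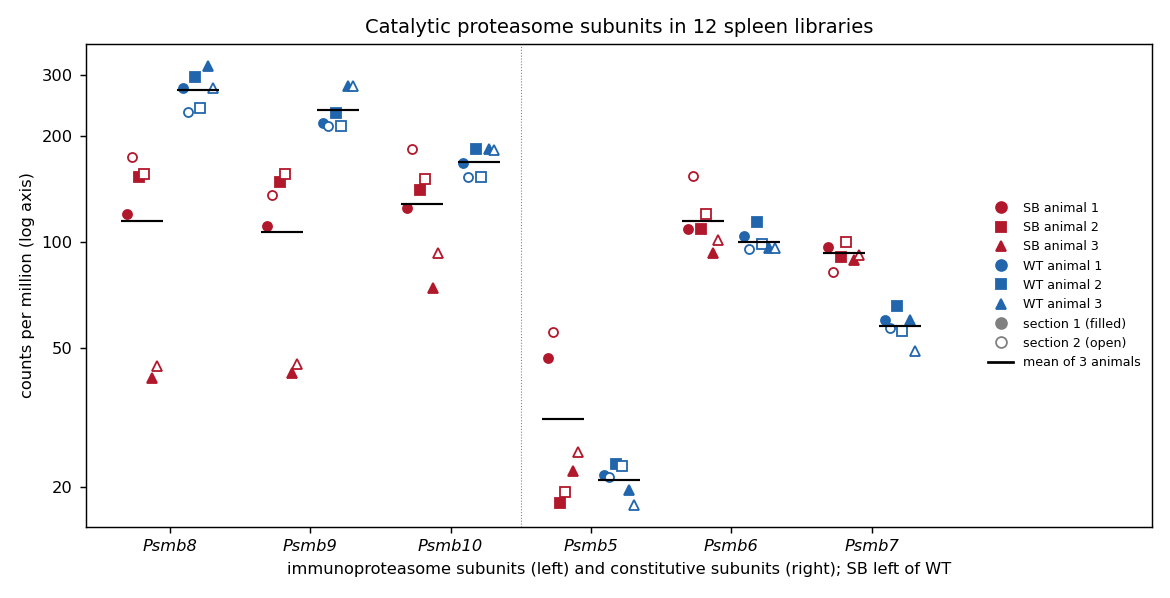
Level in CPM (log axis) of the 3 immunoproteasome and the 3 constitutive catalytic subunits in each of 12 spleen sections, SB (red) left of WT (blue), with the shape giving the animal, filled and open symbols the section and the line the mean of 3 animals. Psmb8 and Psmb9 lie lower in every SB section, Psmb7 lies higher, and SB animal 3 is lowest for all 3 immunoproteasome genes.

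The values of Psmb5 are uncertain because the gene has a near copy. Of all 50-base stretches of its annotated exons, 54.1% also occur in another gene, most of them in the processed pseudogene Gm3375 on another chromosome. Gm3375 received 13 reads in SB animal 1 beside 1792 for Psmb5, which is 0.72% of their sum, but 50.2% of the sum in SB animal 2, 31.7% in SB animal 3, and 27.2%, 27.8% and 28.0% in the WT animals. SB animal 1 was thus the animal with almost all reads on Psmb5, in both sections. Adding both genes gave 51.3, 37.6 and 34.8 CPM in the SB animals and 29.7, 32.1 and 26.1 CPM in the WT animals, so that the sum was higher in all 3 SB animals than in any WT animal. Over single sections the genotypes overlapped, with 32.1 CPM in section 1 of SB animal 3 and 32.7 CPM in section 1 of WT animal 2. The exact permutation test over animals gave p = 0.1 (two-sided), the smallest p that 3 against 3 allows. Why the split between the genes differs was not tested.

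**Figure D2:**
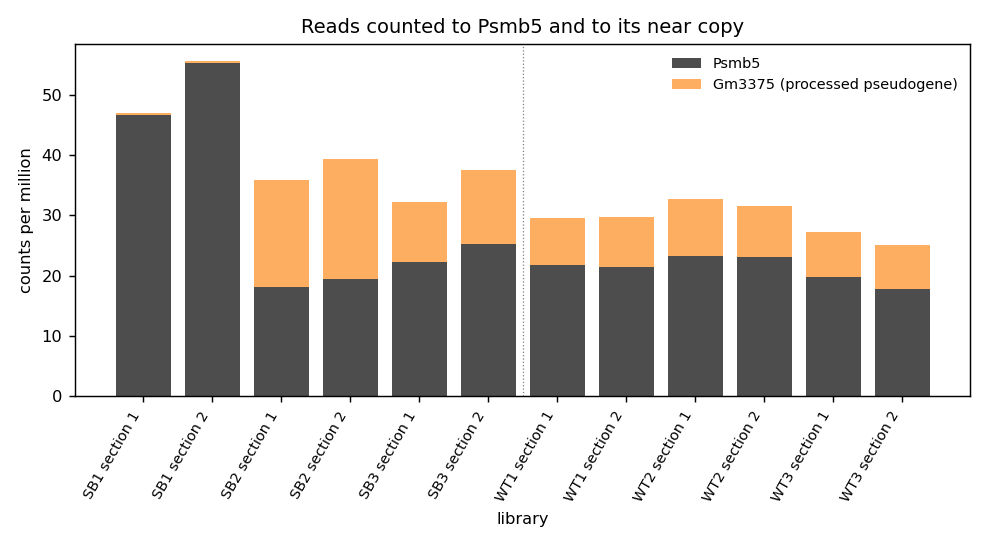
CPM counted to Psmb5 (grey) and to its near copy Gm3375 (orange), stacked for each of the 12 sections, SB libraries left of WT libraries. Gm3375 is nearly missing in both sections of SB animal 1 and takes about as many reads as Psmb5 in SB animal 2.

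Read ratios within a library do not depend on how libraries are scaled. The log2 ratio of Psmb8 to Psmb5 was 1.52, 3.04 and 0.85 in the SB animals and 3.55, 3.54 and 3.98 in the WT animals, a difference of -1.89. With the Gm3375 reads added to Psmb5 it was -1.94. The gap between the genotypes was narrowest for SB animal 2, the animal in which Psmb5 had the fewest reads.

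For Psmb9 over Psmb6 the log2 ratio was -0.08, 0.41 and -1.15 in the SB animals and 1.12, 1.07 and 1.53 in the WT animals, a difference of -1.52. For Psmb10 over Psmb7 it was 0.75, 0.61 and -0.12 in the SB animals and 1.45, 1.48 and 1.74 in the WT animals, a difference of -1.14. SB animal 3 had the lowest value of all animals in each of the 3 ratios. Each ratio gave p = 0.1 in the two-sided exact permutation test over 6 animals, which is the smallest possible, and 0.1 after adjustment over the 3 ratios, so none can pass 0.05 in this design.

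Both sections showed the same separation. In the first sections the Psmb9 to Psmb6 read ratio was 0.456 to 1.36 in SB and 2.04 to 2.89 in WT spleens, and in the second sections it was 0.444 to 1.30 in SB and 2.16 to 2.90 in WT spleens. The narrowest gap was that of Psmb10 to Psmb7 in the second sections, with 1.01 to 2.24 in SB and 2.69 to 3.74 in WT spleens. The sections of SB animal 1 differed in this ratio by 0.79 on the log2 scale, more than the sections of any other animal.

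**Figure D3:**
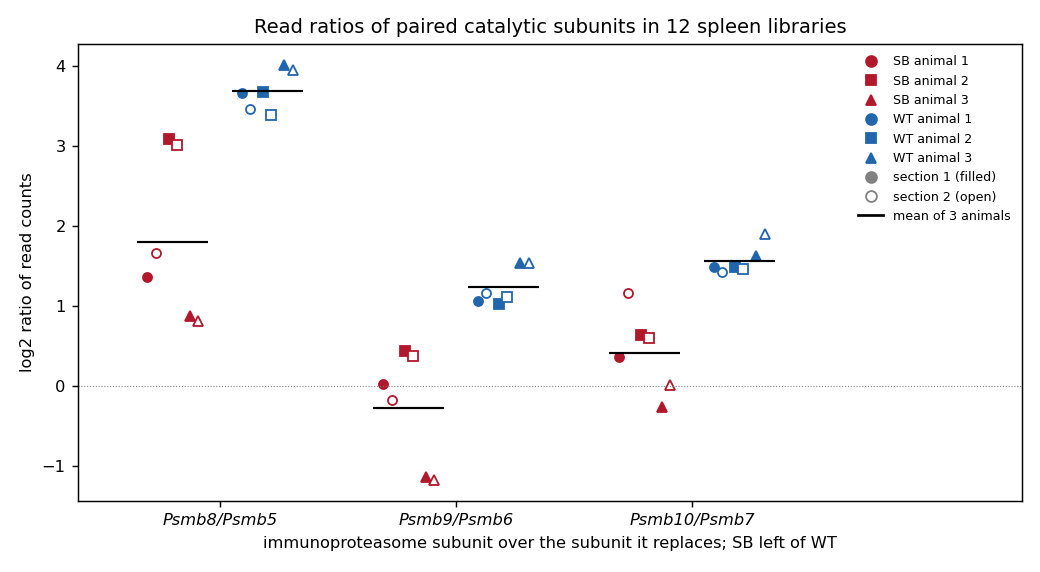
Log2 ratio of read counts of each immunoproteasome subunit to the constitutive subunit it replaces, for 12 sections, SB (red) left of WT (blue), with the shape giving the animal, filled and open symbols the section and the line the mean of 3 animals. For every pair the 6 SB sections lie below the 6 WT sections, and SB animal 3 is lowest.

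Levels of different genes were compared per kilobase of the principal transcript. On that scale the order in SB spleens was Psmb6 (144 ± 20.1), Psmb10 (97.8 ± 29.04), Psmb7 (80.1 ± 2.62), Psmb9 (79.2 ± 41.7), Psmb8 (70.5 ± 38.2) and Psmb5 (34.8 ± 19.1 CPM per kb, SD, n = 3). In WT spleens it was Psmb9 (175 ± 25.1), Psmb8 (166 ± 13.9), Psmb10 (129 ± 8.96), Psmb6 (125 ± 6.34), Psmb7 (49.6 ± 2.32) and Psmb5 (23.4 ± 2.38 CPM per kb). In SB spleens Psmb6 exceeded Psmb10 in each of the 3 animals, with 164 against 117, 145 against 112 and 124 against 64.4 CPM per kb. The positions of Psmb10, Psmb7, Psmb9, Psmb8 and Psmb5 varied between animals. Psmb5 was last in SB animals 1 and 2, but in SB animal 3 it had 26.8 against 26.6 CPM per kb for Psmb8. In WT spleens Psmb9 and Psmb8, and likewise Psmb10 and Psmb6, lay within their spread. Psmb9 was nonetheless above Psmb8 in each WT animal, with 159 against 154, 163.2 against 163.1 and 204 against 182 CPM per kb. The 3 immunoproteasome subunits together made up 48.0% and 51.7% of the per-length level of all 6 in the first SB animal, 56.9% and 55.9% in the second and 34.1% and 35.9% in the third, against 68.2% to 73.8% in the WT sections. The order of levels changed when the length of all annotated exons was used, with Psmb10 then first in both genotypes.

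Psmb8 and Psmb9 lie beside each other and beside the peptide transporter gene Tap1 in the MHC class II region of chromosome 17, whereas Psmb10 lies on chromosome 8. Psmb9 overlaps the start of Tap1 and Psmb8 overlaps the antisense gene Gm20496, and without strand such reads cannot be told apart, although Gm20496 averaged only 0.762 ± 0.291 CPM in SB and 3.87 ± 0.686 CPM in WT spleens. Tap1 had 356, 377 and 167 CPM in the SB animals and averaged 453 ± 53.7 CPM in the WT animals (log2 -0.59, adjusted p = 0.262, edgeR's quasi-likelihood test). Its SB animals ranked as they did for Psmb9.

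The region was taken as 100 kb on either side of Psmb9 and Psmb8, and H2-Ea-ps, which lies beyond it, was added by name. These were 15 other genes tested, and all had negative log2 fold changes. Of the 15, 6 fell, H2-Ea-ps included, beside 9.1% of all genes. Among the 15, 5 differed less than Psmb9, among them Brd2 (log2 -0.44) and Tap2 (log2 -0.53). H2-Ob, a class II gene of B cells, averaged 21.1 ± 11.4 CPM in SB and 689 ± 33.8 CPM in WT spleens. For H2-Ea-ps the log2 fold change was -9.07 (adjusted p = 0.000637, edgeR's quasi-likelihood test), with every SB library far below every WT library. For Psmb8 and Psmb9, which lie on the same stretch of chromosome 17, a difference in MHC haplotype between the groups and an effect of genotype cannot be told apart.

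Of the 49 genes of the set tested, 12 rose in SB spleens and 0 fell (edgeR's quasi-likelihood test, adjusted p under 0.05), where 7.99% of all 17328 genes tested rose and 9.1% fell. At an unadjusted p under 0.05 there were 31, of which 28 were higher and 3 lower in SB spleens, beside 34.6% of all genes. The 6 SB libraries lay wholly above the 6 WT libraries for 25 of the 49 genes, beside 13.1% of all genes, and wholly below for 3 (Psmb8, Psmb9 and Psme2b), beside 16.5% of all genes. The median log2 fold change was 0.52 over the set and 0.11 over all genes. With upper quartile scaling the median of all genes moved to -0.02 and that of the set to 0.39, and the distance between them stayed at 0.41 to 0.42. That scaling gave 1050 genes higher and 1835 lower in SB over the whole table, against 1385 higher and 1576 lower as reported.

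Taking the 31 subunits of the standard proteasome alone, 11 rose and 20 did not pass, and all 31 had a positive log2 fold change, with a median of 0.55; under upper quartile scaling 30 were positive, the exception being Psmb1 at -0.03, and 28 were positive under every alternative run. Their summed level was 4139 to 5151 CPM in SB libraries and 3011 to 3508 CPM in WT libraries, with no overlap. The proliferation genes given above were higher in the same libraries, and their part in these counts was not tested. The calls needed all 3 WT animals: without WT animal 1, 2 or 3, edgeR's quasi-likelihood test called 0 of the 49 genes, with 14, 15 and 13 at an unadjusted p under 0.05, beside 23.1%, 22.5% and 21.7% of all genes. The same fits called 399, 253 and 376 genes of the whole table, and the median log2 fold change of the set was 0.51, 0.54 and 0.48. Psmd1 stayed at a log2 fold change of 0.98 to 1.07 and Psmb7 at 0.64 to 0.71 whichever animal was left out. Leaving out SB animal 2 raised the count of calls to 22, all higher in SB.

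**Figure D4:**
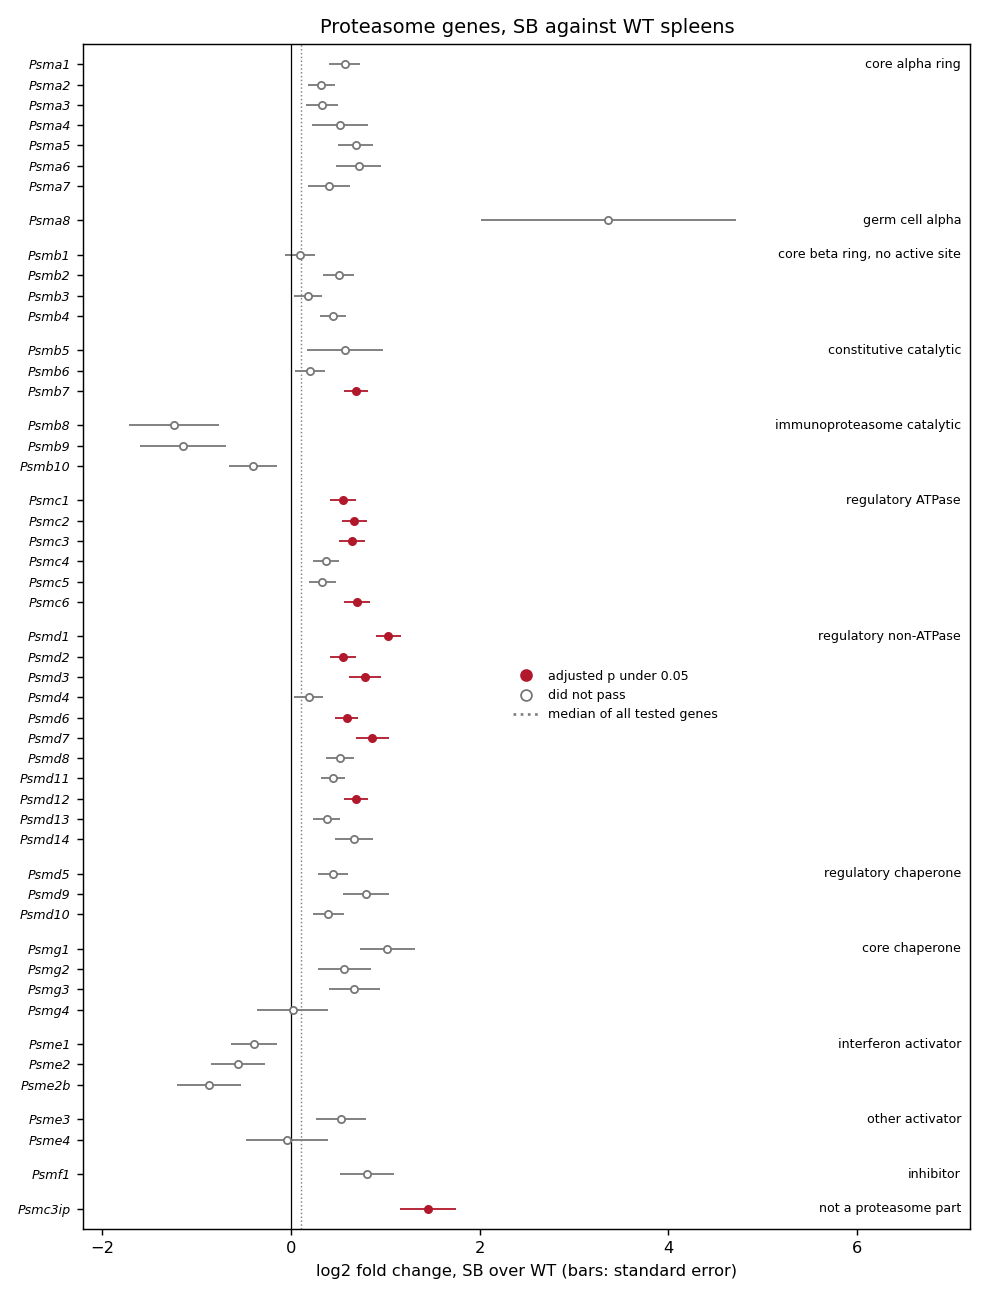
Log2 fold change, SB over WT, with its standard error for the 49 genes tested, grouped by role, with filled red points for an adjusted p under 0.05 and the dotted line at the median of all genes. Calls fall mainly among the regulatory ATPases and non-ATPases, and the immunoproteasome subunits and the interferon-inducible activator genes lie left of 0.

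The regulatory particle held most of the calls, with 4 of 6 ATPase genes and 6 of 11 non-ATPase genes. Psmd1, which encodes a large scaffold subunit at the base of the regulatory particle, changed most among them. It had 119.8 to 194 CPM in the SB libraries, with a median of 175 CPM, and 75.9 to 90.7 CPM in the WT libraries, with a median of 82.6 CPM. The groups did not overlap, and the rise was 2.04-fold (log2 1.03, SE 0.13, adjusted p = 0.00878, edgeR's quasi-likelihood test).

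Psmd7, which encodes the partner of the deubiquitinase Psmd14, rose by a log2 fold change of 0.86 (SE 0.17, adjusted p = 0.0238, edgeR's quasi-likelihood test), with 168, 119.9 and 146 CPM in the SB animals and 80.0, 82.1 and 76.8 CPM in the WT animals. Psmd3, a subunit of the lid of the regulatory particle, averaged 239 ± 37.4 CPM in SB and 139 ± 1.96 CPM in WT spleens (log2 0.78, adjusted p = 0.0305, edgeR's quasi-likelihood test). For both genes every SB section was above every WT section, and the SB animals were further apart than the WT animals. Psmd14 itself, which removes ubiquitin chains at the entry to the core, had 169, 118 and 112 CPM in the SB animals and 84.7, 85.9 and 80.2 CPM in the WT animals, and at a log2 fold change of 0.67 it did not pass (adjusted p = 0.0706, edgeR's quasi-likelihood test).

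The other non-ATPase genes that rose were Psmd12 (log2 0.69), Psmd6 (0.59) and Psmd2 (0.55), where Psmd2 encodes the other scaffold subunit, a docking place for proteins that deliver ubiquitinated substrates. Psmd2 passed in 5 of 14 alternatives, and in limma's fit on 12 libraries it did not (adjusted p = 0.0733). Their SB animals agreed closely: Psmd12 had 103, 103 and 108 CPM in SB animals, against 63.1, 64.1 and 67.9 CPM in WT animals. The ubiquitin receptor gene Psmd4 was among those that did not pass, with 235, 205 and 189 CPM in SB animals and 188, 190 and 175 CPM in WT animals, which overlapped.

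The ATPases form the ring that unfolds substrates and opens the gate of the core. Psmc6 rose by 0.70, Psmc2 by 0.67, Psmc3 by 0.65 and Psmc1 by 0.55 on the log2 scale, with adjusted p values of 0.0232, 0.0232, 0.0296 and 0.0454 in edgeR's quasi-likelihood test. Psmc6 had 129, 153 and 141 CPM in SB animals, against 87.5, 88.0 and 84.7 CPM in WT animals, and all SB sections were above all WT sections. The remaining ATPase genes Psmc4 and Psmc5 had log2 fold changes of 0.37 and 0.33 and did not pass.

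In the core, 0 of the 7 alpha ring genes and 0 of the 4 beta ring genes without an active site passed in edgeR's quasi-likelihood test. The alpha genes had log2 fold changes of 0.32 to 0.72, and the SB libraries lay wholly above the WT libraries for 4 of them. Psma5 shares 50% of its 50-base stretches with other genes, mostly with Gm8394, which had at most 7 reads in a library. Psma6 had the largest difference, with 278, 169 and 175 CPM in SB animals and 117, 135 and 126 CPM in WT animals (adjusted p = 0.0901, edgeR). Psma4 was high in 1 SB animal only, with 154, 82.4 and 77.2 CPM in SB animals and 70.0, 75.8 and 73.1 CPM in WT animals. Psmb4, a beta subunit without an active site, had the highest level per kilobase of principal transcript in SB spleens, with 217 CPM per kb in SB and 159 CPM per kb in WT spleens, with Psma7 close to it at 209 CPM per kb in SB and 158 CPM per kb in WT spleens. Per length of all exons Psma6 was higher, with 168 CPM per kb in SB spleens against 131 CPM per kb for Psmb4.

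Among the activators, the genes of the interferon-inducible cap all had negative log2 fold changes and none passed. Psme1 and Psme2 encode its alternating subunits. Psme1 had 277, 197 and 159 CPM in SB animals and 250, 276 and 307 CPM in WT animals (log2 -0.40, adjusted p = 0.298, edgeR), and it was the member of highest level per length in WT spleens, at 190 CPM per kb in SB and 250 CPM per kb in WT spleens. Psme2 had 65.0, 78.0 and 37.6 CPM in SB animals and 81.8, 85.3 and 98.8 CPM in WT animals (log2 -0.56, adjusted p = 0.221, edgeR). Both genes overlapped between the genotypes, with SB animal 3 lowest, as for the immunoproteasome subunits. Psme2b, a copy of Psme2 that shares 69.3% of its 50-base stretches with other genes, is uncertain and was low, at 1.44 ± 0.261 CPM in SB and 2.63 ± 0.426 CPM in WT spleens.

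Psme3 and Psme4 encode the nuclear activators that do not depend on ubiquitin. Psme3 had 283, 474 and 280 CPM in SB animals and 269, 239 and 208 CPM in WT animals, so SB animal 2 stood alone. Psme4 had 142, 157 and 47.6 CPM in SB animals and 112, 124 and 121 CPM in WT animals, with SB animal 3 far below the rest. Psmf1, the gene of a proteasome inhibitor, had 72.9, 146 and 91.8 CPM in SB animals and 67.5, 56.1 and 53.4 CPM in WT animals, did not overlap over libraries and did not pass (log2 0.81, adjusted p = 0.106, edgeR).

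Assembly chaperones did not pass either, with 0 of 4 core chaperones (Psmg genes) and 0 of 3 regulatory particle chaperones (Psmd5, Psmd9 and Psmd10) called by edgeR. Psmg1, whose product starts the alpha ring with that of Psmg2, had 59.4, 28.5 and 41.1 CPM in SB animals and 21.7, 20.8 and 21.1 CPM in WT animals (log2 1.02, adjusted p = 0.0628, edgeR). All SB sections were above all WT sections, with SB animal 1 highest. Psmg4 had 31.9, 17.2 and 12.4 CPM in SB animals and 18.3, 22.8 and 19.7 CPM in WT animals, with SB animals on both sides of the WT range.

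Psmc3ip matches the rule by its symbol but is not a proteasome part: it encodes a nuclear factor of meiotic recombination that was named for binding Psmc3. It rose most of the genes called, with 16.8, 14.2 and 13.6 CPM in SB animals and 6.29, 6.11 and 3.90 CPM in WT animals (log2 1.45, SE 0.30, adjusted p = 0.0271, edgeR's quasi-likelihood test). Its groups did not overlap, and 17.6% of its 50-base stretches are shared, mainly with the overlapping gene Mlx.

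Subunits restricted to other tissues were also counted. Psma8, the alpha subunit of male germ cells, was at 24.9 and 23.7 CPM in the sections of SB animal 1, 3.43 and 2.88 CPM in SB animal 2 and 0.652 and 0.393 CPM in SB animal 3, against 0.545 to 1.51 CPM in the WT libraries. Both sections of SB animal 1 were thus high and those of SB animal 3 were at the WT level, and the log2 fold change of 3.36 (SE 1.35, adjusted p = 0.140, edgeR) did not pass. Psmb11, the subunit of the thymus cortex, had at most 0.155 CPM in an SB library and 0.197 CPM in a WT library, and had the lowest level of the set.

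**Figure D5:**
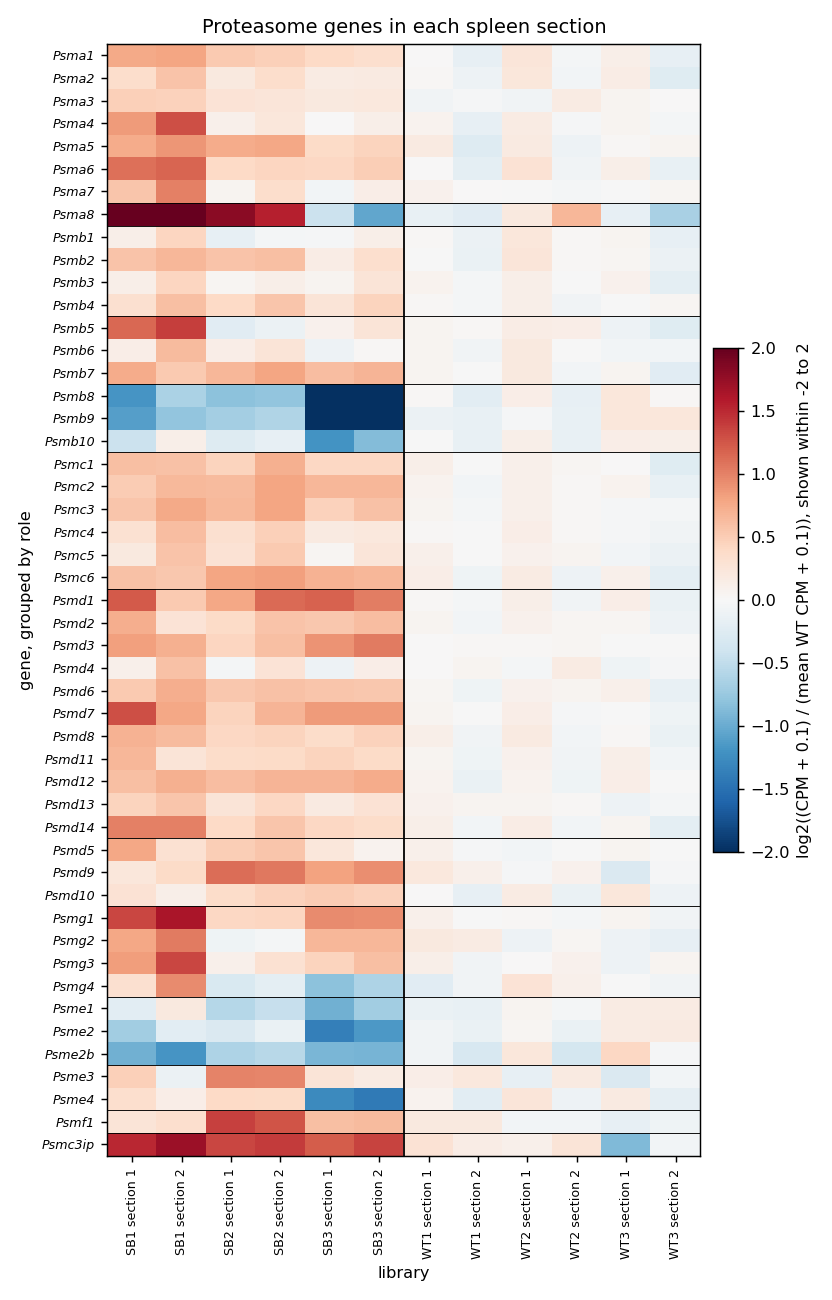
Log2 of each section's CPM over the mean of the WT animals (0.1 CPM added to both) for the 49 genes tested, by role, SB sections left of WT sections, with colours limited to -2 to 2. The regulatory subunits lie above the WT mean in nearly all SB sections, while the immunoproteasome genes, Psma8, the activators and the chaperones differ between SB animals.

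The SB animals were less alike than the WT animals. Among the 47 genes of the set with a mean of at least 10 CPM, the median coefficient of variation over animals was 13.9% in SB and 4.67% in WT spleens, beside 30.4% in SB and 5.44% in WT spleens for all genes of that level. By role it was 7.61% in SB and 3.58% in WT spleens for the ATPases, 8.99% in SB and 3.30% in WT spleens for the non-ATPases and 52.6% in SB and 8.38% in WT spleens for the immunoproteasome subunits. An F test of the 3 animals of a genotype, with the spread taken from sections of 1 spleen, called 24 of the 49 genes in SB spleens, where 70.1% of all genes were called. In WT spleens it called 0 of the 49 genes in edgeR (3 at an unadjusted p under 0.05), where 0.417% of all genes were called. These p values compare the spleens themselves.

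The 5 genes with the smallest p between SB animals were Psma8, Psmb9, Psme4, Psmb8 and Psmb5, in that order. Their values are given above. SB animal 3 was the low one for Psmb8, Psmb9 and Psme4, and SB animal 1 the high one for Psma8 and Psmb5. Adjusted p values were 2.04e-08 for Psma8, 1.68e-07 for Psmb9, 2.59e-06 for Psme4, 2.70e-06 for Psmb8 and 3.33e-06 for Psmb5 (edgeR's quasi-likelihood F test).

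Section 2 was set against section 1 within each spleen. In SB spleens 0 of the 49 genes differed in edgeR's quasi-likelihood test, where 0% of all genes were called. At an unadjusted p under 0.05 there were 17 of the 49 genes, beside 20.1% of all genes. Single spleens could still differ: in SB animal 1, Psmd1 had 194 CPM in section 1 and 119.8 CPM in section 2, and Psme3 had 332 CPM in section 1 and 220.5 CPM in section 2. In WT spleens 4 genes of the set were lower in section 2 (8.32% of all genes differed): Psme4 by a log2 fold change of -0.33, Psma6 by -0.28, Psmc6 by -0.26 and Psma1 by -0.24. The labels name the WT sections A and B and give no position in the spleen, and a fit without the animal as a replicate block called 0 genes in WT spleens. The difference of the section effect between SB and WT spleens passed for 0 of the 49 genes in edgeR's test, where it passed for 1.23% of all genes. At an unadjusted p under 0.05 there were 24 of the 49 genes, beside 17.1% of all genes. For Psmb8, Psmb9 and Psmb10 the section effects in SB spleens were 0.23, 0.15 and 0.33 on the log2 scale. In WT spleens they were -0.24, -0.05 and -0.14, and none passed in either genotype. The differences between the genotypes were 0.48, 0.20 and 0.47. They did not pass, with adjusted p values of 0.0948, 0.336 and 0.0915 in edgeR's quasi-likelihood test.

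Genes that work with the proteasome were read from lists of known members. Of the 10 partner genes measured, 3 rose and 0 fell, where 7.99% of all genes rose and 9.1% fell. The list median was 0.47 beside 0.11 for all genes. The 3 that rose were Usp14, the deubiquitinase that trims chains on the regulatory particle (130 ± 10.7 CPM in SB and 57.9 ± 5.11 CPM in WT spleens, log2 1.16), Uchl5, the other such deubiquitinase (92.3 ± 31.0 CPM in SB and 41.4 ± 1.31 CPM in WT spleens, log2 1.16), and the redox protein gene Txnl1 (146 ± 7.85 CPM in SB and 71.2 ± 2.60 CPM in WT spleens, log2 1.04). All 3 passed edgeR's quasi-likelihood test with adjusted p values of 0.00876, 0.0332 and 0.00868. The core maturation factor gene Pomp had 142 ± 17.3 CPM in SB and 125 ± 0.295 CPM in WT spleens and did not pass. Log2 fold changes were positive for 9 of the 10 partner genes, the exception being Ublcp1 (log2 -1.32, adjusted p = 0.207, edgeR). Ublcp1 had 5.71, 37.8 and 28.3 CPM in SB animals and 54.8, 73.4 and 50.7 CPM in WT animals. Every SB library lay below every WT library for it, and it did not pass.

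Of 10 regulators of proteasome genes, 2 rose: Foxm1, a cell cycle transcription factor, with 81.7 ± 4.30 CPM in SB and 24.3 ± 4.02 CPM in WT spleens, and Nfe2l2, the oxidative stress factor, with 155 ± 16.9 CPM in SB and 90.2 ± 4.04 CPM in WT spleens. Nfe2l1, the factor that raises proteasome genes when the proteasome is inhibited, had 109, 155 and 123 CPM in SB animals and averaged 176 ± 8.09 CPM in WT animals (log2 -0.46, adjusted p = 0.131, edgeR), and did not pass. Of 16 genes of the ubiquitin pathway 2 rose, the Vcp cofactor gene Nploc4 (log2 0.68) and the shuttle receptor gene Rad23b (log2 0.74). The list medians were 0.39 for the regulators and 0.27 for the ubiquitin pathway, beside 0.11 for all genes, of which 7.99% rose.

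Peptide loading onto MHC class I was divided by gene. The chaperones of the endoplasmic reticulum Canx (log2 0.86) and Pdia3 (log2 0.66) rose, and 0 of the 11 genes fell, with a list median of -0.53. Of all genes 7.99% rose and 9.1% fell. The class I heavy chain gene H2-K1 had 1837, 2680 and 817 CPM in SB animals and averaged 2806 ± 285 CPM in WT animals, overlapping over libraries, with SB animal 3 again the lowest. H2-D1, another heavy chain gene, had 1162, 2891 and 749 CPM in SB animals and averaged 3362 ± 295 CPM in WT animals. It did not overlap over libraries and did not pass (log2 -1.07, adjusted p = 0.207, edgeR). Of the 11 genes, the SB libraries lay wholly below the WT libraries for 3, beside 16.5% of all genes. They lay wholly above for 3, beside 13.1%. Of 17 genes of the interferon-gamma axis, which induces the immunoproteasome, 0 passed in edgeR's quasi-likelihood test, with a list median of -0.63. Their SB animals were far apart: Irf1, a direct activator of immunoproteasome genes, had 62.4, 228 and 38.2 CPM in SB animals and averaged 251 ± 43.2 CPM in WT animals, and Ciita, the regulator of class II genes, had 3.07, 74.2 and 11.4 CPM in SB animals and averaged 229 ± 27.1 CPM in WT animals. SB animal 2 was the highest of the SB animals for both. Of the 17 genes, 6 had a positive log2 fold change, led by the interferon-gamma target Cxcl9, with 1.05, 268 and 2.67 CPM in SB animals and a mean of 21.96 ± 6.89 CPM in WT animals (log2 2.04, adjusted p = 0.480, edgeR). Igtp, another target, had 36.8, 268 and 71.8 CPM in SB animals and averaged 81.0 ± 18.5 CPM in WT animals.

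Promoter sequence was read where a window was given, because interferon-gamma acts through the activation site TTCNNNGAA and Nfe2l1 and Nfe2l2 through a core that reads TGACNNNGC, on either strand. RefSeq windows of 250 bases upstream of a start site, build GRCm38.p6, were found for 42 of the 50 genes (45 windows), including 8 of the 12 that rose and not Psmb7, Psmc3, Psmd3 or Psmd7. The 5 shown are those of the catalytic subunits and of the genes that rose in which one of the letters was found. Matches are in capitals. Only bases outside annotated exons are shown, except for Psmb8. Its window held no run of 29 bases outside exons. The 29 bases centred on its match are shown instead, and they include exon bases.
Psmb8, chr17:34198088-34198116, plus strand: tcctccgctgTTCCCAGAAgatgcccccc
Psmb5, chr14:54618023-54618245, minus strand: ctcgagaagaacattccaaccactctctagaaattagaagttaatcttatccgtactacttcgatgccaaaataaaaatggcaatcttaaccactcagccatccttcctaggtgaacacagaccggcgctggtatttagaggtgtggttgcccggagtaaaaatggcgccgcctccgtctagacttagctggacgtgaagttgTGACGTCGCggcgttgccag
Psmb6, chr11:70525107-70525356, plus strand: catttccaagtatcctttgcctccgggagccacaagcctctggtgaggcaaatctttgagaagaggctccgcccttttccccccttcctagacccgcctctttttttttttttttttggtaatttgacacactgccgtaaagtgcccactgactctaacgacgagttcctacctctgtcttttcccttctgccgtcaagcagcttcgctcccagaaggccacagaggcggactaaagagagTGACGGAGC
Psmc6, chr14:45329574-45329787, plus strand: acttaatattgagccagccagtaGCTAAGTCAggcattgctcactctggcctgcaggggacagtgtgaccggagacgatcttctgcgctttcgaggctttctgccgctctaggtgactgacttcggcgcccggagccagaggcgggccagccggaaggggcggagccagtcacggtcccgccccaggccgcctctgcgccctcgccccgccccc
Psmd12, chr11:107479278-107479483, plus strand: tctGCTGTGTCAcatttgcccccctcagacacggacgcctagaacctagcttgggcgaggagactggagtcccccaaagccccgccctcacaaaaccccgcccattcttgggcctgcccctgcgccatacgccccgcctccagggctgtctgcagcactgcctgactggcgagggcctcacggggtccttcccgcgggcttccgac

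The activation site letters occurred in the Psmb8 window, 97 bases before that start site, and in that of Psmg1, which is 2 of 45 windows (4.44%) beside 7.02% of 32851 windows of all genes. The windows of Psmb9 and Psmb10 did not hold it. The TGACNNNGC core occurred in the windows of Psmb5, Psmb6, Psmc6, Psmd12 and Psmd9, which is 11.1% of the set's windows beside 10.2% of all windows. In Psmb5 and Psmb6 it lay 47 and 9 bases before the start, and in Psmc6 and Psmd12 at the far end of the window, 227 and 247 bases before it. The core of the interferon-stimulated response element, a pair of GAAA stretches 2 bases apart, occurred in 3 of 45 windows (6.67%) beside 2.98% of all windows, in Psmb3, Psmd4 and Psmd9, and the CCAAT box in 15 of 45 (33.3%) beside 33.9% of all windows. Of the genes with the TGACNNNGC core, Psmc6 and Psmd12 rose in SB spleens and Psmb5, Psmb6 and Psmd9 did not pass.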

How the data were processed

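The deposited values are whole-number read counts per Ensembl gene from unstranded poly-A libraries, not normalised by the authors, judged from the values. Per the submitters' processing notes the tools included STAR 2.5.3a and limma, and the builds mm10 and GRCm38; how reads were counted and on which annotation is not stated in the labels. Of 32121 genes, 32026 matched the GENCODE mouse annotation, release 21, and 95 did not (at most 0.0271% of a library).

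The replicate was the animal (3 SB, 3 WT). Counts of both sections were summed and compared with edgeR 4.0.16 in R 4.3.3 (filterByExpr, TMM scaling, robust quasi-likelihood fit, Benjamini-Hochberg adjusted p under 0.05 over 17328 genes). SE values come from the F statistic. The fit was also run on simulated counts with the same spread in both genotypes. In the real counts the median coefficient of variation over animals was 40.0% in SB and 8.29% in WT spleens, over all genes tested. The simulation therefore cannot show how the calls behave under unequal spread. CPM are counts scaled to a common library size with TMM factors. Sections were compared in all 12 libraries, blocked by animal, since both carry the same animal's name. Deviations from the group mean in the 2 sections of a spleen correlated, over genes, at 0.90 to 0.91 in SB animals and at 0.097 to 0.31 in WT animals. WT sections A and B were taken as 1 and 2. The 2 sections of a spleen were not copies of each other: a chi-square test of them gave 6.09 to 41.6 for each degree of freedom. The labels pair no SB animal with a WT animal, and p values measure only the spread between these animals.

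Ratios were tested with exact permutation in scipy 1.17.1. Near copies were sought with 50-base windows of annotated exons, and levels per length use the principal transcript. The genes named are the catalytic pairs, the members called by a test, the extremes of level and untested members, with further members chosen after their values were seen. The members and lists were chosen with earlier results of these data known. Alternatives were other scalings (RLE, upper quartile, total counts), no filter, DESeq2 1.42.0, limma 3.58.1, single sections and leaving out each animal; adding Gm3375 reads and using the length of all exons were chosen after seeing the data. Of the B cell marker list 1 gene is not reported here, and the list's count and sums leave it out.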

Additional observations from a re-analysis of the deposited data

Results flagged for a closer look

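In 3 of the 104 groups of 6 libraries examined (49 genes and 3 ratios in each genotype), 1 library stood apart from the other 5 by a Dixon gap test at the 95% level; chance gives about 1 in 20. Psmd6 had 125 CPM in section 2 of SB animal 1, where the other SB libraries had 109 to 114 CPM. Psmc1 had 86.2 CPM in section 2 of WT animal 3, where the other WT libraries had 102 to 111 CPM. The read ratio of Psmb10 to Psmb7 was 3.74 in section 2 of WT animal 3, where the other WT libraries had 2.69 to 3.08. The sections of 1 animal are not independent samples.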

How the results depend on the processing

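The 3 subunit ratios kept their direction and moved by less than the spread between animals in each alternative run, from -1.41 to -2.50 for Psmb8 over Psmb5 when single animals were left out, from -1.08 to -1.86 for Psmb9 over Psmb6 and from -0.87 to -1.31 for Psmb10 over Psmb7. The count of the set's genes called between SB and WT, 12 as reported, was 7 with total counts, 3 with no filter, 22 with DESeq2 (21 higher, 1 lower), 20 with limma's voom on 12 libraries (18 higher; Psmb8 and Psmb9 lower), 6 with the first sections alone, and 0 to 22 when single animals were left out, with 0 without any 1 WT animal. Over all genes it was 2961 of 17328 as reported, 2752 of 17328 with total counts and 2236 of 32121 with no filter. The set then held 49 genes tested with total counts and 50 with no filter. With DESeq2 the count over all genes was 5523, and with an animal left out it was 253 to 6174. Between sections, without the replicate block, the counts of 1397 in WT spleens and 206 for the difference both became 0. With no filter they were 2194 and 1218, and 1357 in SB spleens against 0; with an animal left out they ran from 0 to 3345, from 0 to 540 and from 0 to 812. Between WT animals, 726 genes against 74 were called with no filter. The causes were not tested. The part that depth plays in these calls was not tested.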
